A study of Homo sapiens with 2 samples.

Results

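The genes described here are 57 genes of the PI3K-mTOR pathway and of autophagy, chosen by symbol from the 40205 genes listed for RKO cells, a human line from a colorectal carcinoma. They form a control arm of 27 genes (class I PI3K, AKT, the TSC complex, the mTOR complexes, S6 kinases, Rag GTPases with their Ragulator anchor, and AMPK) and an autophagy arm of 30 genes (the ULK and class III PI3K complexes, membrane supply, the conjugation machinery, the LC3 and GABARAP proteins, and cargo receptors). Of the 57 genes, 56 were listed under their own symbol and ATG101 under its older symbol C12orf44. RNA was sequenced from cells transfected with an siRNA against hnRNPK and from cells transfected with a control siRNA, both collected on day 2, with 1 library in each group. The genotype label of the hnRNPK library is worded as a knockout, whereas its title and the protocol describe siRNA. With 1 library a group, none of the differences has a replicate check and no test between conditions was possible. The comparison asks which transcripts of these pathways differ when hnRNPK, an RNA-binding protein, is depleted.

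Growth factor receptors activate class I PI3K, which through PDK1 and AKT inhibits the TSC complex and so frees the GTPase RHEB to activate mTOR. mTOR complex 1 (mTOR, raptor, mLST8) works on the lysosome, where Rag GTPases bring it when amino acids are plentiful, and it holds back autophagy by phosphorylating the ULK complex, while AMPK, switched on by LKB1 when energy is short, acts against mTOR and activates ULK1. The ULK complex starts the autophagosome, the class III PI3K complex marks its membrane, ATG9 and ATG2 supply lipid, and a ubiquitin-like conjugation machinery attaches LC3 and GABARAP proteins to it, to which cargo receptors bind. RKO cells are known to carry an activating mutation in PIK3CA.

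HNRNPK itself was at 61.5 FPKM (an expression value scaled to transcript length and sequencing depth) in the hnRNPK siRNA library, against 338.0 FPKM in the control siRNA library, a ratio of 0.182 with a 95% counting interval of 0.174 to 0.190. The smallest library totals that could give the deposited values were 28550823 reads for hnRNPK siRNA and 25729856 reads for control siRNA. Each interval of an FPKM ratio is an exact Clopper-Pearson interval from the reads worked out in this way, and each interval of a ratio of ratios is a normal approximation on the log scale from 4 read counts. Both cover counting error only. Those read numbers are the smallest possible ones, and sequenced reads can be copies of 1 molecule. Of 8 colorectal epithelial markers EPCAM, KRT8, KRT18 and CDX2 were measured, with EPCAM at 29.1 FPKM in hnRNPK siRNA and 19.0 FPKM in control siRNA and CDX2 at 4.47 FPKM in hnRNPK siRNA and 5.01 FPKM in control siRNA, whereas KRT19, CDH1, VIL1 and LGALS4 were listed at 0 in both. Of 8 blood markers 5 were listed at 0 in both libraries and CD68, a lysosomal protein, was the 1 measured, at 193 FPKM in hnRNPK siRNA and 307 FPKM in control siRNA. Of 8 stromal and endothelial markers 5 were listed at 0 in both and ACTA2 was the 1 measured, at 2.79 FPKM in hnRNPK siRNA and 1.35 FPKM in control siRNA. The part of such marker differences in the results was not tested. In bulk RNA, fewer cells of a type and less RNA per cell cannot be told apart.

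Of the 57 genes, 53 had a mean of at least 1 FPKM over both libraries, as did 11454 genes in all. In what follows, differences are log2 ratios of FPKM + 1, hnRNPK siRNA over control siRNA. The added 1 shrinks the differences of low genes, whereas printed ratios use FPKM alone. By a size rule of 1.5-fold on that log2 scale, 1 of the 53 measured genes was higher in hnRNPK siRNA and 8 were lower, while over all measured genes 3.67% were higher and 14.7% were lower. The 8 genes are 15.1% of the 53, which is close to the background share. They were AKT1, MTOR, MLST8, RPS6KB1, LAMTOR2 and STK11 of the control arm and WIPI1 and ATG7 of the autophagy arm, and the higher gene was GABARAPL1. At 2-fold AKT1 alone was lower, beside 3.55% of all genes, and none of the 53 was higher, beside 0.777% of all genes. The log2 ratio was below the median of all genes (−0.15) for 41 of the 53, against 50% of all genes by construction.

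The arms differed in how many of their genes passed the size rule. In the control arm 6 of 24 measured genes (25%) were at least 1.5-fold lower in hnRNPK siRNA and none was higher, and the median log2 ratio was −0.31. In the autophagy arm 2 of 29 measured genes (6.90%) were lower and 1 was higher, with a median log2 ratio of −0.21. Relative to the median of all genes these medians were −0.16 and −0.063. The difference between the arms was not tested, and it ran the other way among other genes of the same pathways, described below. There 3.33% of 30 measured control genes and 20.8% of 24 measured autophagy genes were at least 1.5-fold lower, beside 14.7% of all genes. The counting interval of the ratio lay wholly below 1 for 38 of the 53 genes (71.7%) and wholly above 1 for 3, whereas among 11328 genes with reads worked out 48.6% lay below and 20.4% above. These intervals compare the 2 libraries and not the conditions. How often they exclude 1 depends on the reads of each gene, for which the sets were not matched. The 38 include RRAGC, BECN1, ATG16L1 and TAX1BP1, whose sign turned under another scaling.

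**Figure D1:**
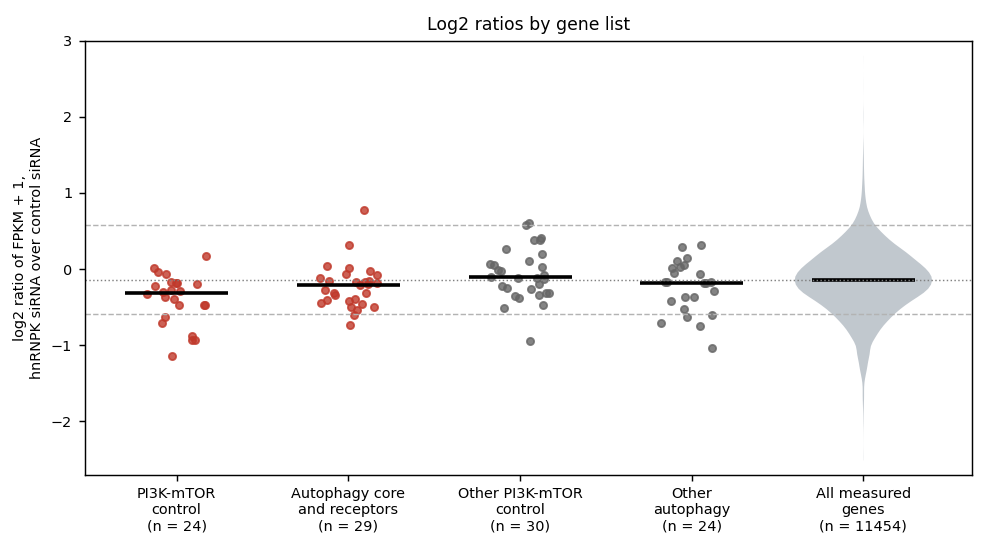
Log2 ratio of FPKM + 1, hnRNPK siRNA over control siRNA, for the measured genes of both arms, for other genes of the same pathways, and for all 11454 measured genes (violin); points are genes, thick bars are medians, the dotted line is the median of all genes and dashed lines mark 1.5-fold. The control arm has its median at −0.31 and 6 points below the lower dashed line, whereas the autophagy arm has its median at −0.21 with 2 below and GABARAPL1 above the upper line.

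How far these counts depend on scaling bears on each direction given here. Centring the ratios on the median of all genes moved every log2 ratio up by 0.15, a trimmed mean of ratios moved the median of all genes up by 0.16, and equal FPKM totals without small RNAs moved it down by 0.088. The 8 lower genes became 5 after centring (AKT1, MTOR, MLST8, STK11 and WIPI1), 4 with the trimmed mean (the same genes without WIPI1) and 10 with equal totals, while GABARAPL1 was higher under each. With equal totals the lower genes were 6 of the control arm and 4 of the autophagy arm. Over all 11454 measured genes, 420 were at least 1.5-fold higher and 1682 lower as deposited, and 827 were higher and 1027 lower after centring. These counts were 918 and 1034 with the trimmed mean and 286 and 2197 with equal totals. For 13 of the 53 genes the sign of the log2 ratio turned under at least 1 of these scalings. They were RICTOR, RRAGA, RRAGC, LAMTOR1, ULK1, ATG101, BECN1, ATG9A, WIPI2, ATG5, ATG16L1, GABARAP and TAX1BP1, and no direction is given for them.

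**Figure D2:**
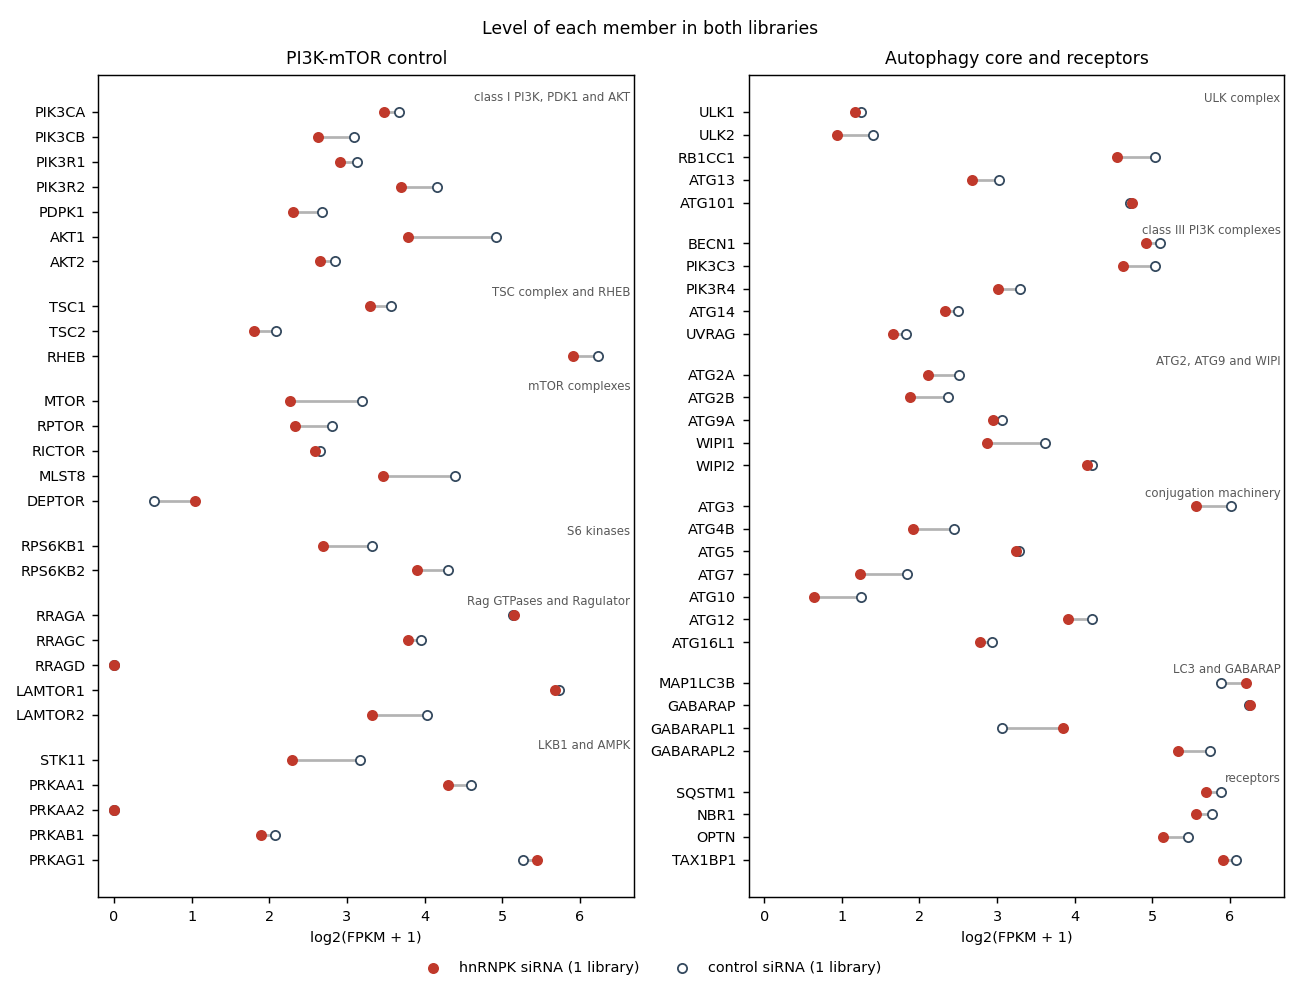
Level of all 57 genes as log2(FPKM + 1) in the hnRNPK siRNA library (filled points) and the control siRNA library (open points), ordered by role. The longest lines are those of AKT1, MTOR, MLST8, STK11, WIPI1 and GABARAPL1, RRAGD and PRKAA2 lie at 0 in both libraries, and the 4 receptors lie close together.

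Among class I PI3K, PDK1 and AKT, AKT1 stood lowest. AKT1, the kinase that relays PI3K signals to the TSC complex, was at 12.8 FPKM in hnRNPK siRNA from 1091 reads, against 29.4 FPKM in control siRNA from 2258 reads. This is a ratio of 0.435 (0.405 to 0.468), and 2.15% of all measured genes had a lower log2 ratio. AKT2, a close relative, was at 5.30 FPKM in hnRNPK siRNA and 6.23 FPKM in control siRNA, a ratio of 0.851 (0.772 to 0.939). The level of AKT1 relative to AKT2 was 2.41 in hnRNPK siRNA and 4.72 in control siRNA, a ratio of ratios of 0.511 (0.453 to 0.577) that does not depend on the scaling between libraries. This and the other 13 pairs of genes compared in this way were chosen after their values had been seen.

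The PI3K subunits differed less than AKT1. The catalytic subunit gene PIK3CA was at 10.2 FPKM in hnRNPK siRNA and 11.7 FPKM in control siRNA, a ratio of 0.870 (0.799 to 0.946), the highest of the 7 genes of this group. PIK3CB, the other widely expressed catalytic subunit, had a ratio of 0.685 (0.629 to 0.747). Of the regulatory subunits, PIK3R1 had a ratio of 0.839 (0.734 to 0.959) and PIK3R2 a ratio of 0.707 (0.658 to 0.759). PDPK1, which encodes the AKT-activating kinase PDK1 and has a near-identical copy in the genome that makes its reads uncertain, had a ratio of 0.734 (0.669 to 0.805). All 7 intervals lay below 1, beside 48.6% of all genes with reads worked out. All 7 log2 ratios were under that of the median gene, beside 50% of all genes by construction. Relative to the median gene, PIK3CA, AKT2 and PIK3R1 were at only −0.038, −0.052 and −0.076 on the log2 scale.

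TSC1, TSC2 and RHEB were all lower in hnRNPK siRNA by less than 1.5-fold. TSC1 was at 8.87 FPKM in hnRNPK siRNA and 10.9 FPKM in control siRNA, a ratio of 0.813 (0.767 to 0.862). TSC2, whose protein acts with that of TSC1 to switch RHEB off, was at 2.48 FPKM in hnRNPK siRNA and 3.25 FPKM in control siRNA, a ratio of 0.764 (0.671 to 0.870). Its level relative to TSC1 gave a ratio of ratios of 0.940 (0.817 to 1.08), the only pair compared in this way whose interval includes 1. RHEB, the GTPase that activates mTOR, was at 59.0 FPKM in hnRNPK siRNA and 74.1 FPKM in control siRNA, a ratio of 0.796 (0.761 to 0.833). It was the most abundant control gene in both libraries by FPKM, and processed copies of it in the genome make its reads uncertain. TBC1D7, the other subunit of the TSC complex and from the list of other pathway genes, was higher, at 5.70 FPKM in hnRNPK siRNA and 4.61 FPKM in control siRNA, a ratio of 1.24 (1.004 to 1.53).

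Among the measured genes of the mTOR complexes, MTOR, MLST8 and RPTOR had lower ratios than RICTOR. MTOR, the kinase of both complexes, was at 3.83 FPKM in hnRNPK siRNA from 956 reads, against 8.17 FPKM in control siRNA from 1841 reads, a ratio of 0.468 (0.432 to 0.506). MLST8, a subunit of both, was at 10.04 FPKM in hnRNPK siRNA from 557 reads and 19.97 FPKM in control siRNA from 999 reads, a ratio of 0.502 (0.452 to 0.558). Fewer than 5% of all genes had a lower log2 ratio than either of them, at 4.50% for MTOR and 4.52% for MLST8. RPTOR, which encodes raptor, the substrate-binding subunit of complex 1, was at 4.04 FPKM in hnRNPK siRNA and 6.003 FPKM in control siRNA, a ratio of 0.672 (0.612 to 0.738).

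RICTOR, the defining subunit of complex 2, was at 5.005 FPKM in hnRNPK siRNA and 5.29 FPKM in control siRNA, a ratio of 0.945 whose interval of 0.876 to 1.02 includes 1. The level of MTOR relative to RICTOR was 0.764 in hnRNPK siRNA and 1.54 in control siRNA, a ratio of ratios of 0.495 (0.444 to 0.552). That of MLST8 relative to RICTOR was 0.532 (0.468 to 0.604), and that of RPTOR relative to RICTOR was 0.711 (0.631 to 0.801). None of these intervals includes 1 and none depends on the scaling. The split does not follow the complexes, since MAPKAP1 (mSIN1), a subunit of complex 2 from the list of other pathway genes, had a ratio of 0.717 (0.691 to 0.745), and AKT1S1 (PRAS40), bound to complex 1, had a ratio of 1.02 (0.909 to 1.15). DEPTOR, an inhibitor bound to both complexes, was at 1.07 FPKM in hnRNPK siRNA from 80 reads, against 0.428 FPKM in control siRNA from 29 reads, a ratio of 2.49 (1.61 to 3.94), but its mean is below 1 FPKM and it is in none of the counts.

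**Figure D3:**
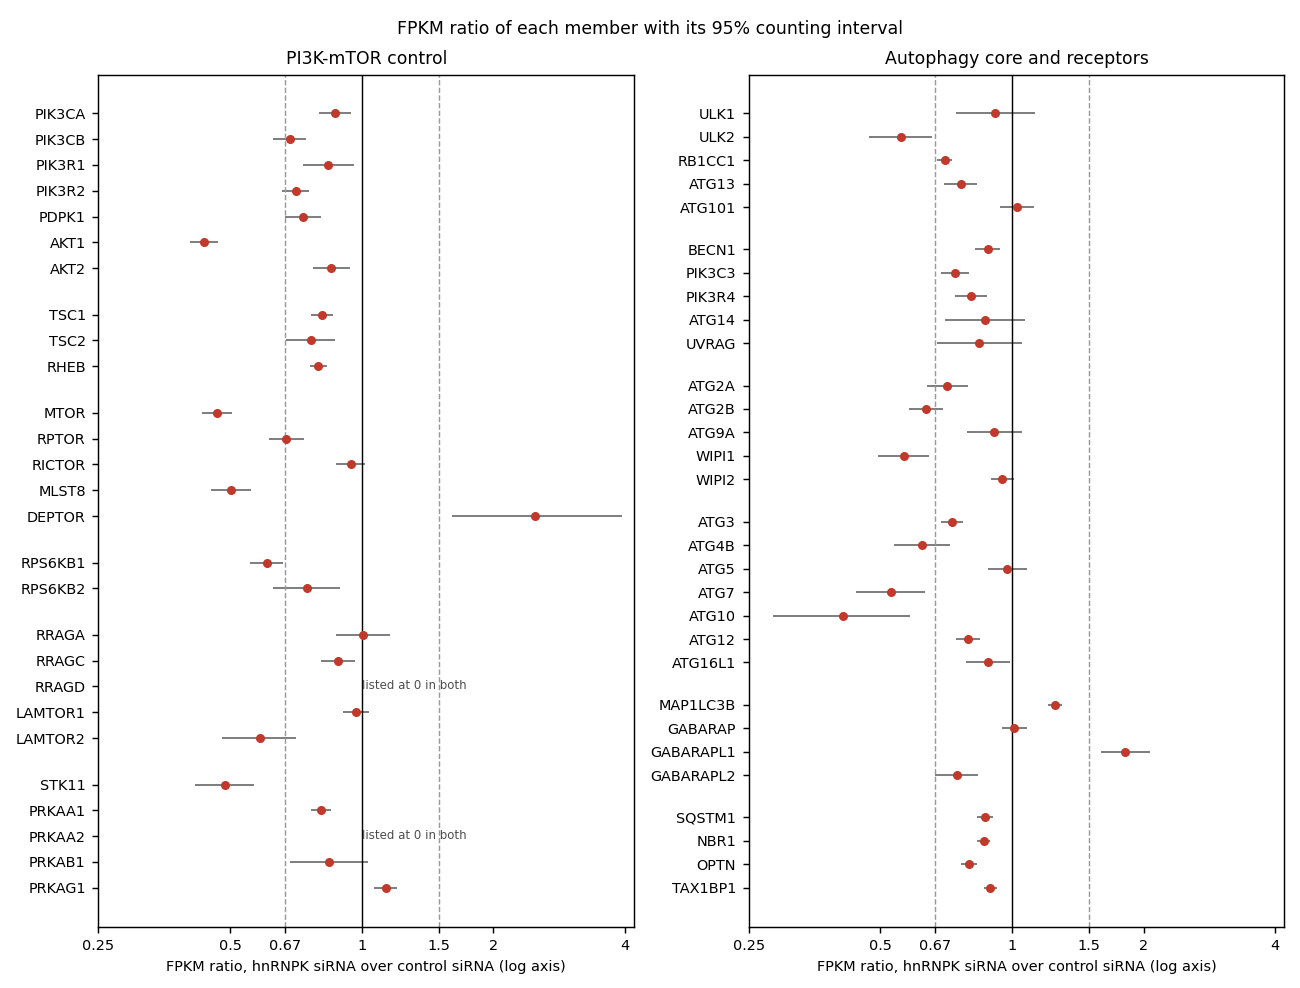
FPKM ratio of hnRNPK siRNA over control siRNA on a log axis for the 55 genes above 0 in the libraries, with exact 95% counting intervals (bars), a solid line at no difference and dashed lines at 1.5-fold in either direction. AKT1, MTOR, MLST8 and STK11 lie near 0.5, the interval of RICTOR includes 1, and GABARAPL1, at 1.82, is the furthest to the right among genes with a mean of at least 1 FPKM.

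Downstream and upstream of mTOR complex 1 the values were mixed. RPS6KB1, the S6 kinase gene best known as an mTOR target, was at 5.45 FPKM in hnRNPK siRNA and 8.98 FPKM in control siRNA, a ratio of 0.607 (0.556 to 0.662). RPS6KB2, its paralog, was at 14.0 FPKM in hnRNPK siRNA and 18.6 FPKM in control siRNA, a ratio of 0.748 (0.627 to 0.893), and RPS6KB1 relative to RPS6KB2 gave a ratio of ratios of 0.811 (0.668 to 0.984). The difference of RPS6KB1 was not past 1.5-fold after centring, at a log2 ratio of −0.48.

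The Ragulator subunits, which anchor mTOR to the lysosome, differed among themselves. LAMTOR2 was at 9.001 FPKM in hnRNPK siRNA from 175 reads, against 15.4 FPKM in control siRNA from 270 reads, a ratio of 0.584 (0.480 to 0.709). LAMTOR1, which holds Ragulator on the membrane, was at 50.4 FPKM in hnRNPK siRNA and 52.0 FPKM in control siRNA, a ratio of 0.969 (0.904 to 1.04). The other Ragulator genes, LAMTOR3, LAMTOR4 and LAMTOR5, from the list of other pathway genes and chosen after their values were seen, had ratios of 1.08 (0.983 to 1.20), 1.31 (1.15 to 1.497) and 1.35 (1.18 to 1.55). LAMTOR2 is thus the lowest of the 5 subunits in ratio, and its level relative to LAMTOR1 gave a ratio of ratios of 0.603 (0.492 to 0.738). Of the Rag GTPase genes, RRAGA was at 34.6 FPKM in hnRNPK siRNA and 34.3 FPKM in control siRNA, a ratio of 1.01 (0.873 to 1.16). RRAGC had a ratio of 0.883 (0.809 to 0.965), while RRAGD was listed at 0 in both libraries.

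The transcripts of LKB1 and of its partners CAB39 and STRADA were lower, and those of AMPK subunits were not uniformly so. STK11, which encodes LKB1, was at 3.902 FPKM in hnRNPK siRNA from 253 reads, against 8.03 FPKM in control siRNA from 469 reads, a ratio of 0.486 (0.416 to 0.568). Its partners, from the list of other pathway genes, were CAB39 (MO25) at 13.4 FPKM in hnRNPK siRNA and 26.6 FPKM in control siRNA, a ratio of 0.503 (0.472 to 0.536), and STRADA at 3.11 FPKM in hnRNPK siRNA and 4.84 FPKM in control siRNA, a ratio of 0.642 (0.547 to 0.752). LKB1 is active only when bound to STRAD and MO25. STRADA was singled out after its values had been seen and, at a log2 ratio of −0.51, was not past 1.5-fold on the FPKM + 1 scale.

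Of the AMPK subunits, the catalytic PRKAA1 was at 18.8 FPKM in hnRNPK siRNA and 23.3 FPKM in control siRNA, a ratio of 0.807 (0.766 to 0.850). PRKAG1, the regulatory subunit that senses AMP, was at 42.7 FPKM in hnRNPK siRNA and 37.7 FPKM in control siRNA, a ratio of 1.14 (1.07 to 1.21), and it was the control gene with the highest ratio among those measured. PRKAB1, a scaffold subunit, had a ratio of 0.842 (0.686 to 1.03), and its paralog PRKAB2 one of 1.35 (1.24 to 1.47). The other catalytic subunit gene, PRKAA2, was listed at 0 in both libraries. PRKAG1 relative to PRKAA1 was 2.28 in hnRNPK siRNA and 1.62 in control siRNA, a ratio of ratios of 1.41 (1.30 to 1.52). STK11 relative to PRKAA1 gave a ratio of ratios of 0.603 (0.513 to 0.708).

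Turning to autophagy, the ULK complex held 1 kinase gene near its control level and another below it. ULK1, the initiating kinase, was at 1.25 FPKM in hnRNPK siRNA and 1.37 FPKM in control siRNA, a ratio of 0.916 (0.743 to 1.13). ULK2, its paralog, was at 0.912 FPKM in hnRNPK siRNA from 238 reads, against 1.64 FPKM in control siRNA from 385 reads, a ratio of 0.557 (0.472 to 0.657), which at this low level is a log2 ratio of −0.46 with 1 FPKM added. RB1CC1, the scaffold FIP200, was the lowest of the complex by log2 ratio (−0.49), at 22.3 FPKM in hnRNPK siRNA and 31.8 FPKM in control siRNA. The adaptor ATG13 had a ratio of 0.763 (0.698 to 0.834). Its partner ATG101 was the highest of the complex, at 25.8 FPKM in hnRNPK siRNA and 25.1 FPKM in control siRNA, a ratio of 1.03 (0.938 to 1.12).

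The class III PI3K complexes varied least among the groups of 5 genes, with log2 ratios between −0.42 and −0.17. The lipid kinase gene PIK3C3 (VPS34) was lowest, at 23.6 FPKM in hnRNPK siRNA and 31.8 FPKM in control siRNA, a ratio of 0.741 (0.687 to 0.799). ATG14, which directs the complex to the autophagosome, was highest, at 4.03 FPKM in hnRNPK siRNA and 4.65 FPKM in control siRNA, a ratio of 0.868 (0.704 to 1.07). BECN1, the scaffold beclin 1, had a ratio of 0.881 (0.825 to 0.941), PIK3R4 (VPS15) one of 0.807 (0.741 to 0.879), and UVRAG, the alternative to ATG14, one of 0.843 (0.675 to 1.05). None of the 5 was past 1.5-fold.

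Among the membrane supply genes, the phosphoinositide-binding proteins differed from each other. WIPI1 was at 6.34 FPKM in hnRNPK siRNA from 348 reads, against 11.2 FPKM in control siRNA from 555 reads, a ratio of 0.565 (0.493 to 0.647). WIPI2, the paralog that recruits ATG16L1, was at 16.8 FPKM in hnRNPK siRNA and 17.7 FPKM in control siRNA, a ratio of 0.95 (0.895 to 1.01). WIPI1 made up 27.4% of their summed FPKM in hnRNPK siRNA and 38.8% in control siRNA, and its level relative to WIPI2 gave a ratio of ratios of 0.595 (0.514 to 0.689). The lipid transfer genes ATG2A and ATG2B had ratios of 0.711 (0.638 to 0.792) and 0.636 (0.582 to 0.696), and the lipid scramblase gene ATG9A one of 0.911 (0.788 to 1.05).

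In the conjugation machinery ATG7 and ATG10 were lowest. ATG7, the E1-like enzyme that activates both ubiquitin-like proteins, was at 1.36 FPKM in hnRNPK siRNA from 196 reads, against 2.57 FPKM in control siRNA from 334 reads, a ratio of 0.529 (0.441 to 0.633). ATG10, the E2-like enzyme for ATG12, was at 0.563 FPKM in hnRNPK siRNA from 47 reads and 1.37 FPKM in control siRNA from 103 reads, a ratio of 0.411 (0.285 to 0.586), with a mean below 1 FPKM that keeps it out of the counts. ATG3, the E2-like enzyme for LC3, was the most abundant of the 7, at 46.4 FPKM in hnRNPK siRNA and 63.7 FPKM in control siRNA, a ratio of 0.728 (0.687 to 0.773). ATG7 relative to ATG3 gave a ratio of ratios of 0.726 (0.603 to 0.874). The transcripts of ATG5, ATG12 and ATG16L1, whose proteins form a conjugate not measured here, had ratios closer to 1 than the rest of the group. The interval of ATG12 overlaps that of ATG3. ATG5 was the highest of the group, at 8.49 FPKM in hnRNPK siRNA and 8.69 FPKM in control siRNA, a ratio of 0.977 (0.882 to 1.08), ATG16L1 had a ratio of 0.883 (0.785 to 0.992) and ATG12 one of 0.794 (0.745 to 0.846). ATG4B, the protease that primes and removes LC3, had a ratio of 0.623 (0.537 to 0.721).

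The LC3 and GABARAP genes held the 2 highest log2 ratios among the 53. GABARAPL1 was at 13.4 FPKM in hnRNPK siRNA from 713 reads, against 7.36 FPKM in control siRNA from 354 reads, a ratio of 1.82 (1.60 to 2.07), and 98.4% of all measured genes had a lower log2 ratio. MAP1LC3B, the LC3 form used as the usual marker of autophagosomes, was at 72.7 FPKM in hnRNPK siRNA and 57.9 FPKM in control siRNA, a ratio of 1.26 (1.21 to 1.30). GABARAP was at 75.8 FPKM in hnRNPK siRNA and 74.9 FPKM in control siRNA, a ratio of 1.01 (0.949 to 1.08). GABARAPL2 was lower, at 39.3 FPKM in hnRNPK siRNA and 52.6 FPKM in control siRNA, a ratio of 0.747 (0.667 to 0.837).

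The sum over the 4 genes was 201 FPKM in hnRNPK siRNA and 193 FPKM in control siRNA, so their make-up differed more than their total. The share of GABARAPL1 was 6.64% in hnRNPK siRNA and 3.82% in control siRNA, and that of GABARAPL2 was 19.5% in hnRNPK siRNA and 27.3% in control siRNA. GABARAPL1 relative to GABARAPL2 gave a ratio of ratios of 2.43 (2.05 to 2.88), and MAP1LC3B relative to GABARAPL2 one of 1.68 (1.49 to 1.89). MAP1LC3B is uncertain because it shares coding sequence with MAP1LC3B2, which was at 10.7 FPKM in hnRNPK siRNA and 10.5 FPKM in control siRNA. GABARAPL1 has a pseudogene relative as well. With a pseudocount of 5 FPKM the log2 ratio of GABARAPL1 was 0.57, not past 1.5-fold.

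**Figure D4:**
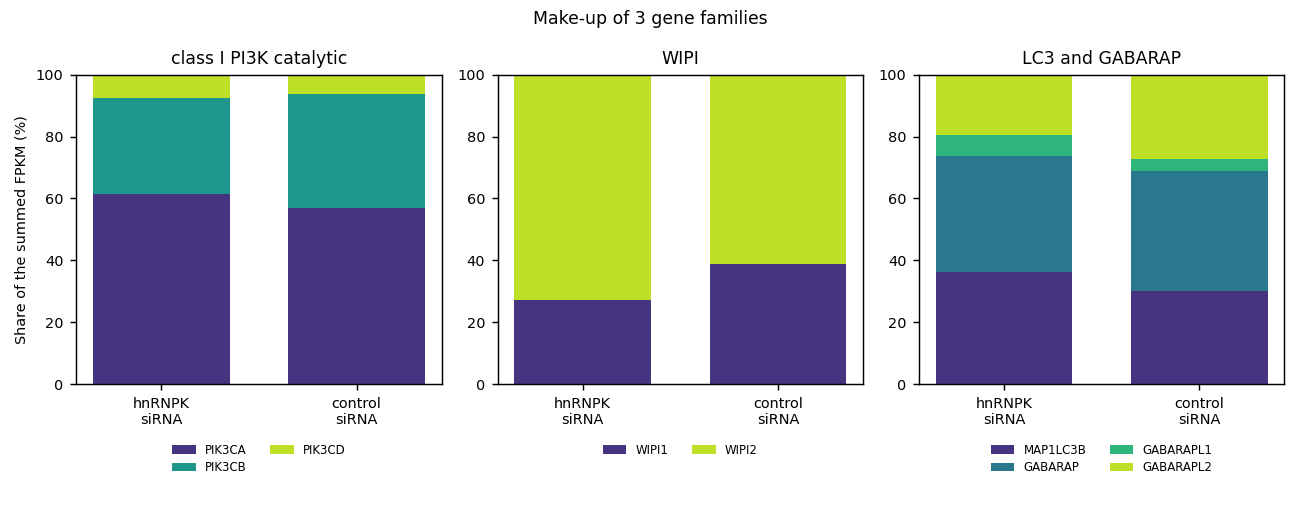
Share of each gene in the summed FPKM of its family, as stacked bars for hnRNPK siRNA (left) and control siRNA (right) in each panel. WIPI1 holds 27.4% of the WIPI sum in hnRNPK siRNA against 38.8% in control siRNA, and GABARAPL1 holds 6.64% in hnRNPK siRNA against 3.82% in control siRNA of the LC3 and GABARAP sum. PIK3CB holds 31.2% of the PI3K catalytic sum in hnRNPK siRNA against 36.8% in control siRNA. That sum is over PIK3CA, PIK3CB and PIK3CD, the last from the list of other pathway genes.

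The 4 cargo receptors differed little between the libraries, with log2 ratios between −0.32 and −0.16. SQSTM1 (p62), which carries ubiquitinated cargo and whose protein is broken down by autophagy, was at 50.6 FPKM in hnRNPK siRNA and 58.2 FPKM in control siRNA, a ratio of 0.869 (0.833 to 0.907). NBR1, its relative, had a ratio of 0.863 (0.834 to 0.892). OPTN, a receptor for mitochondria and bacteria, was lowest, at 34.1 FPKM in hnRNPK siRNA and 42.8 FPKM in control siRNA, a ratio of 0.797 (0.764 to 0.832). TAX1BP1 was highest, at 59.2 FPKM in hnRNPK siRNA and 66.3 FPKM in control siRNA, a ratio of 0.893 (0.862 to 0.926). MTOR relative to SQSTM1 gave a ratio of ratios of 0.538 (0.493 to 0.588). Receptors from the list of other pathway genes ranged more widely. CALCOCO2 had a ratio of 0.639 (0.608 to 0.671) and FUNDC1 one of 1.25 (1.14 to 1.37), a comparison added after their values were seen.

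Other genes of both pathways came from lists drawn up by function. Their counts stand beside the 14.7% of all measured genes that were at least 1.5-fold lower and the 3.67% that were higher. Of 33 other genes of PI3K-mTOR control 30 were measured, of which 1 was at least 1.5-fold lower in hnRNPK siRNA (CAB39) and 1 higher, each 3.33%. Their median log2 ratio was −0.11. The higher gene was SESN1, which restrains mTOR complex 1 when leucine is short, at 5.49 FPKM in hnRNPK siRNA and 3.26 FPKM in control siRNA, a ratio of 1.68 (1.45 to 1.96). Of 29 other autophagy genes 24 were measured, of which 5 (20.8%) were at least 1.5-fold lower and none higher, with a median log2 ratio of −0.18. ATG16L2, a relative of ATG16L1, was the lowest and the only one past 2-fold, at 1.16 FPKM in hnRNPK siRNA from 43 reads and 3.44 FPKM in control siRNA from 115 reads, a ratio of 0.337 (0.232 to 0.482). The other 4 were FYCO1, EPG5, CALCOCO2 and ATG4C, at ratios between 0.510 and 0.639. The highest was FUNDC1, a mitophagy receptor, at 33.6 FPKM in hnRNPK siRNA and 26.9 FPKM in control siRNA, a ratio of 1.25 (1.14 to 1.37).

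The inhibitors of mTOR complex 1 were on both sides. Besides DEPTOR and SESN1, DDIT4 (REDD1), which acts through the TSC complex, was at 31.6 FPKM in hnRNPK siRNA and 20.8 FPKM in control siRNA, a ratio of 1.52 (1.40 to 1.65), which at a log2 ratio of 0.58 was not past 1.5-fold on the FPKM + 1 scale. SESN2, in contrast, had a ratio of 0.860 (0.787 to 0.940). Of the GATOR1 genes, whose proteins switch off the Rag GTPases when amino acids are short, DEPDC5 had a ratio of 0.737 (0.634 to 0.856), NPRL3 one of 0.741 (0.655 to 0.838) and NPRL2 one of 0.991 (0.819 to 1.20). Of the genes outside the 57, DDIT4, SESN2, DEPDC5, NPRL2, NPRL3, AKT1S1, MAPKAP1, TBC1D7, PRKAB2, PIK3CD and MAP1LC3B2 were singled out after their values had been seen.

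Gene length, level and, chosen after the values were seen, base composition were compared with the ratio. The choice of genes by symbol did not use them, but the filter of a mean of at least 1 FPKM used level. The added 1 FPKM also ties the log2 ratio to level. Across the 53 genes the log2 ratio had a Spearman rho of −0.26 with gene length, as worked out from the FPKM values, and of 0.24 with mean FPKM, against −0.22 and 0.17 across 11355 genes. These genes share the same 2 libraries, and some lengths may be too short by a whole factor. With all genes split by length into 4 classes of like size, the shortest class had a median log2 ratio of 0.015 and the longest −0.23. Of the 53 genes 21 fell in the longest class, with a median of −0.34, and 7 in the shortest, with a median of −0.044. The 8 lower genes were not gathered at either end, with 1, 3, 1 and 3 of them in the classes from shortest to longest.

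By GC content of the longest coding transcript, 4 of the 8 lower genes (AKT1, MLST8, LAMTOR2 and STK11) were in the GC-richest of 4 classes, which held 15 of the 53. In that class 18.3% of all genes were at least 1.5-fold lower, against 13.8% in the GC-poorest class. Over all 10031 genes with a value, the rho of GC content with the log2 ratio was −0.040. The part of length, level and composition in these differences was not tested.

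**Figure D5:**
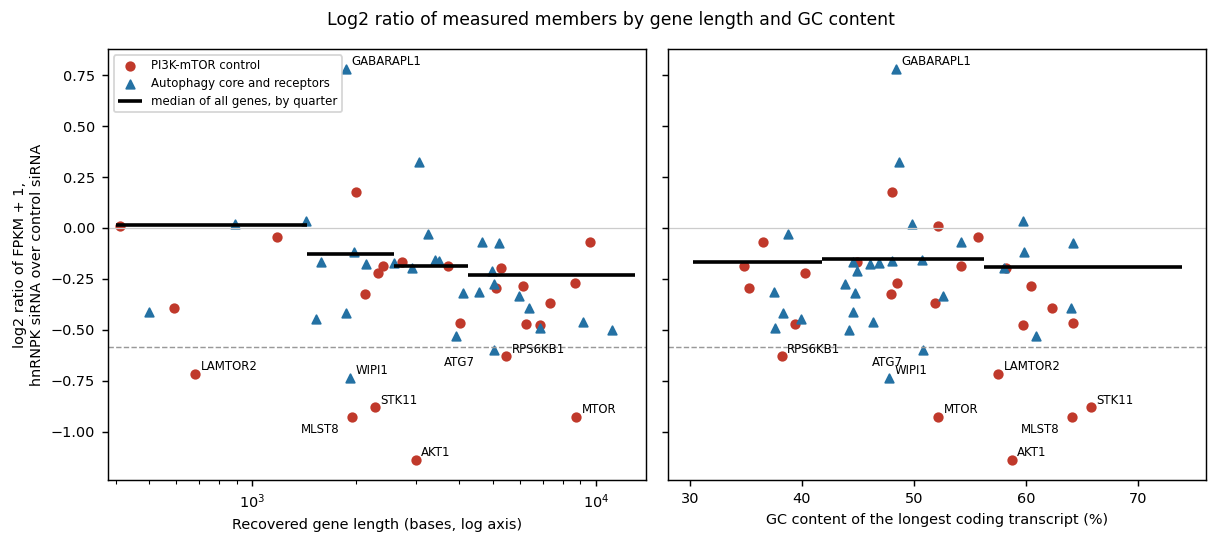
Log2 ratio of FPKM + 1, hnRNPK siRNA over control siRNA, of the 53 measured genes against gene length (left, log axis) and GC content of the longest coding transcript (right), with black bars at the median of all genes in each of 4 classes and a dashed line at 1.5-fold lower. The black bars step down with length and stay level with GC content, and AKT1, MLST8, LAMTOR2 and STK11 lie at the GC-rich end.

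Exons of 10 of the 57 genes were overlapped over more than 20% of their bases by another gene in the GENCODE 29 annotation, and 27 had no overlap, a comparison added after the values were seen. WIPI1 shared 26.5% of its exonic bases with ARSG and ATG7 shared 24.0% with VGLL4, both on the opposite strand. For AKT1 the share was 14.5%, with an antisense RNA, for MLST8 it was 6.48%, with BRICD5, for MTOR it was 0.922% and for STK11 2.28%, and LAMTOR2 had none. RPS6KB1 shared 2.47% with AC005702.1, on the same strand. Overlap was not worked out over all genes. Whether the counting used strand is not given in the sources used here, so reads of such pairs cannot be told apart.

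The 250 bases before the start of AKT1, MTOR and STK11, low in hnRNPK siRNA, and of GABARAPL1, the highest of the 53, are shown 5′ to 3′ to let their promoters be compared. They are from RefSeq on GRCh38.p14, a later build than the hg19 named for the deposited table, at chr14:104795749-104795998 (minus strand), chr1:11262552-11262801 (minus strand), chr19:1205528-1205777 (plus strand) and chr12:10212627-10212876 (plus strand). Capitals mark matches on either strand to CACGTG (the core of the E-box bound by TFEB and MYC family proteins), GTAAACA (forkhead), CCCTCCC (the core of the CT element that hnRNPK is known to bind in the MYC promoter), TGACGTCA (the cAMP response element) and CCAAT (the box bound by NF-Y), and no match in these windows overlaps another.
AKT1: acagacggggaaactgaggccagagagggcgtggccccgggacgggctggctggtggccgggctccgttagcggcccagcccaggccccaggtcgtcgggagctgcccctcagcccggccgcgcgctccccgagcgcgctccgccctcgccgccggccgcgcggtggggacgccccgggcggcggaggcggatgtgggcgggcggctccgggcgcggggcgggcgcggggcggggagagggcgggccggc
MTOR: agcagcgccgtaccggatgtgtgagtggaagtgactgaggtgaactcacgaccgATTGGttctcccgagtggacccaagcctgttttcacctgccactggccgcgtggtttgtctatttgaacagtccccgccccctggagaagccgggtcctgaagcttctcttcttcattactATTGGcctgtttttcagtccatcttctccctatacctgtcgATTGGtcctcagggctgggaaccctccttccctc
STK11: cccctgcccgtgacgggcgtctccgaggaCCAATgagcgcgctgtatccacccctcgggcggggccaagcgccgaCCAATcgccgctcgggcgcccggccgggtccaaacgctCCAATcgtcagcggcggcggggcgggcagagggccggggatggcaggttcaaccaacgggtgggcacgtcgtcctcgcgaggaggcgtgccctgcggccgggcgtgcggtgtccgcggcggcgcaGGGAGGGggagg
GABARAPL1: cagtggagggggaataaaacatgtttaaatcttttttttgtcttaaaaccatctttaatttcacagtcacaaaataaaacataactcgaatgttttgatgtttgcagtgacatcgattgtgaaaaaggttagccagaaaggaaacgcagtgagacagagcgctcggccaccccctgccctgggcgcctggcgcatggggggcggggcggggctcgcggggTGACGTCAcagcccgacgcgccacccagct

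None of the motifs was shared by all of these promoters, and CCAAT was shared by those of MTOR and STK11. The AKT1 window was 83.2% GC and held none of the motifs, the MTOR window was 55.6% GC with 3 CCAAT boxes, and the STK11 window was 76% GC with 3 CCAAT boxes and 1 CCCTCCC match. GABARAPL1 had 1 cAMP response element in a window of 51.6% GC. At least 3 CCAAT boxes were found in 3 of the 49 measured genes with a promoter sequence (ATG9A, MTOR and STK11, or 6.12%), against 4.96% of 7958 measured genes and 3.09% of all 27305 promoters. The cAMP response element was found in 1 of the 49 (GABARAPL1, 2.04%), against 3.09% of measured genes and 1.77% of all promoters. CCAAT and the cAMP response element were searched after the sequences had been seen.

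Over the whole set, CACGTG was in 5 of the 49 promoters (ATG14, ATG3, LAMTOR1, RRAGC and TSC2, or 10.2%), against 9.56% of measured genes and 6.49% of all promoters. CCCTCCC was in 11 of the 49 (22.4%), against 29.1% of measured genes and 23.6% of all promoters, and of the 7 lower genes with a promoter sequence STK11 alone held it. GTAAACA was in 1 of the 49 (PIK3CA, 2.04%), against 1.88% of measured genes and 2.98% of all promoters. These matches describe letters in the windows and not binding.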

How the data were processed

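RNA from 2 libraries of RKO cells, 1 per group, was sequenced, with reads processed by Bowtie 0.12.2 on hg19, per the submitters' processing notes. The authors deposited 1 table of FPKM values with 1 row per gene symbol. The sources used here do not give the annotation or the read counter. Columns were matched to samples by name; for hnRNPK siRNA only Si and K match. Column ratios were fractions of whole reads (relative tolerance 5e-14), which gave reads and gene lengths for 99.3% of the 19069 genes above 0. The 11454 measured genes had a median of 590 reads in hnRNPK siRNA and 629 in control siRNA. The recovery was tested on simulated data. Intervals, all at 95% in SciPy 1.17.1, used Clopper-Pearson limits for ratios and log-scale normal limits of a sample odds ratio for ratios of ratios. With 1 library a group no test was run.

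The genes, lists and size rule were chosen with earlier results of these data known. Full values were given for members past 1.5-fold and for the highest and lowest of each role group, and for others of the 2 pathway lists past 2-fold or at an end of a list, plus those said to have been chosen later. Alternatives were pseudocounts of 0.1 and 5 FPKM, 3 scalings, other filters and folds, and the list mean. The trimmed mean left out 30% of ratios and 5% of levels at each end. Overlaps and GC content came from GENCODE 29 (GC for 87.6% of measured genes) and promoters from RefSeq.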

Additional observations from a re-analysis of the deposited data

How the results depend on the processing

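With 1 library in each group, variation between cultures, transfections and libraries is not measured, and low genes such as DEPTOR and ATG10 are limited by their reads. No paired analysis was possible because each group has 1 library, and for the same reason no library could be left out. HNRNPK, at −2.44 on the log2 scale as reported, came to −2.29 after centring, −2.25 with the trimmed mean, −2.54 with equal totals and −2.37 when 5 FPKM were added. All genes at least 1.5-fold higher and lower, 420 and 1682 as reported, were 188 and 608 with a pseudocount of 5 FPKM, 827 and 1027 after centring and 918 and 1034 with the trimmed mean, 987 were lower at a mean of at least 5 FPKM, 89 and 407 passed 2-fold, and 10 and 39 passed 3-fold. Of the 57 genes, the counts of 1 higher and 8 lower were 0 and 2 when 5 FPKM were added, 1 and 5 after centring, 1 and 4 with the trimmed mean, 0 and 1 at 2-fold, and 0 and 0 at 3-fold. The median log2 ratio of the control arm was −0.16 after centring and −0.15 with the trimmed mean, and that of the autophagy arm was −0.063 and −0.042, both still below 0. Across single genes, 171 of 275 alternative values moved by no more than the distance from the middle to an end of the counting interval on the log2 scale. The other 104 moved further. None past 1.5-fold changed sign, but this was fixed beforehand, since a pseudocount cannot turn a sign and the scalings moved values by less than 1.5-fold.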
